A study of Mus musculus with 27 samples.

Results

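The comparison concerns the axon region of the embryonic mouse optic stalk (OS), cut by laser from frozen sections at embryonic day 14 (E14), in embryos with and without Smarcc1 in the OS. Its members were the 9 libraries labelled as axons, 4 from controls and 5 from mutants, out of 27 libraries in the series. The other libraries came from the dorsal and the ventral OS of the same stage, with 9 of each. Each library held the RNA of 1 region of 1 embryo, amplified before sequencing and counted per gene.

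Both genotypes were homozygous for the floxed Baf155(Smarcc1) allele on a C57Bl6/J background. Mutants also carried Dct-Cre and the Z/EG reporter, and controls were littermates without Dct-Cre. Dct-Cre is active in the retinal pigment epithelium (RPE) and in the OS, including the OS-derived astrocyte progenitors that lie around the axons. The captured piece was a mixture of the axons of retinal ganglion cells (RGCs), whose cell bodies lie in the retina, and of stalk-derived cells in which Cre could be active. In such a bulk sample, fewer cells of a type and less RNA per cell cannot be told apart. The labels also gave a batch letter, without saying what it stands for. Batch A held control 1 and mutants 1 to 3, and batch B held controls 2 to 4 and mutants 4 and 5.

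RGC axons leave the eye through the OS, which is first a tube of neuroepithelium and later becomes the glial wrapping of the optic nerve. Axons carry RNA of their own, but the cell bodies that make most of it lie in the retina, so RNA from an axon bundle comes partly from glial progenitors, blood vessels and blood. Smarcc1 (BAF155) is a core subunit of the SWI/SNF chromatin remodelling complexes, which move nucleosomes and so change which regulatory regions are open.

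The axon label was checked against markers. Nefm, the medium neurofilament chain that fills axons, was at 957 ± 211 reads per 1e6 counted reads (CPM, SD, n = 4) in control axon libraries and at 1290 ± 375 (n = 5) in mutant ones, against 34.3 ± 52.4 in control dorsal libraries. Of its exonic bases, 19.2% are shared with Nefl, so the counts of the pair are uncertain. Of 15 genes of RGC identity, 5 had no read in any of the 9 axon libraries, namely Pou4f2, Pou4f3, Isl2, Tbr1 and Atoh7. Tubb3, the neuronal beta-tubulin, was at 19.2, 34.6, 0 and 0.183 CPM in controls 1 to 4 and at 0 in every mutant but mutant 5, which had 0.133 CPM. In control dorsal libraries Tubb3 had a higher mean, 100 ± 122 CPM. Map2, another cytoskeletal gene, was also higher on average there, at 68.2 ± 76.3 CPM against 42.2 ± 40.4 in control axons. Map1b went with Nefm, at 422 ± 326 CPM there and 1773 ± 349 in control axons. The markers thus did not all set the axons apart. Other listed RGC factors had reads in part of the libraries, such as Ebf1, with 117 CPM in control 2 and 37.9 CPM in mutant 4.

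The libraries held between 14705623 and 23459742 counted reads, with no detectable difference between the genotypes (two-sided exact permutation test, p = 0.873). A single read was worth between 0.0426 and 0.068 CPM, and 3 reads, the limit that a count of 0 allows, between 0.128 and 0.204 CPM. These limits cover counting error only, since amplified reads without molecular identifiers are not independent molecules. The share of reads from mitochondrial DNA was 10.9% ± 3.17 in controls and 10.2% ± 2.04 in mutants (exact permutation p = 0.802). The share from ribosomal protein genes was 6.72% ± 1.67 and 6.62% ± 0.271 (exact permutation p = 0.968). The 50 most abundant genes of a library took 21.03% ± 3.18 and 20.95% ± 2.34 of its reads (exact permutation p = 0.984). Even libraries of 1 genotype differed widely: the median correlation of log values was 0.677 between controls and 0.628 between mutants, and the common biological coefficient of variation was 1.98.

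The targeted gene came first. Smarcc1 (chromosome 9 of mm10, 110117708 to 110240178, plus strand) was at 61.9, 50.1, 242 and 143 CPM in controls 1 to 4. It was at 10.1, 29.0, 5.64, 44.9 and 1.86 CPM in mutants 1 to 5. Every mutant lay below every control, as for 1.04% of all 14977 genes tested. The difference of means on the log2(CPM + 1) scale was -3.05 (two-sided exact permutation test, p = 0.0159, where the smallest possible p is 0.00794; p = 0.127 after adjustment over 8 measures). With splits kept within batches the exact p was 0.025, the smallest that 40 splits allow. The fit across all genes gave a log2 fold change of -2.46 ± 1.23 (SE; edgeR quasi-likelihood test, adjusted p = 0.88). The counts cover the whole gene and not only the exons that Cre removes, so a remaining read does not show a remaining protein. No difference from the genotype effect in the dorsal region was detectable (difference of log2 fold changes -1.28 ± 1.36, edgeR adjusted p = 1.0), where controls had 145 ± 97.9 CPM and mutants 54.5 ± 44.9.

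On average fewer genes were counted in the mutant axon libraries, though the genotypes overlapped. Controls 1 to 4 had at least 1 read in 10076, 14118, 11320 and 13057 genes. Mutants 1 to 5 had at least 1 read in 9225, 9699, 10279, 10168 and 11358 genes. Control 1, the only control of batch A, fell within the range of the mutants, and mutant 5 exceeded both control 1 and control 3. The means were 12143 ± 1797 and 10146 ± 796 genes, a difference of -1997 (two-sided exact permutation test, p = 0.0794, or 0.159 adjusted over 8 measures, and 0.1 with splits kept within batches). The gap was of the same size at equal depth: after thinning every library to 14705623 reads the means were 11909 ± 1735 and 9933 ± 737 genes (exact permutation p = 0.0635). Within batch B, the means were 12832 genes for 3 controls and 10763 for 2 mutants, a comparison in which the smallest possible exact p is 0.1 (exact permutation p = 0.3). Leaving out control 1 widened the difference to -2686 genes (exact permutation p = 0.0357), while leaving out control 2 brought it to -1339 (exact permutation p = 0.179).

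**Figure D1:**
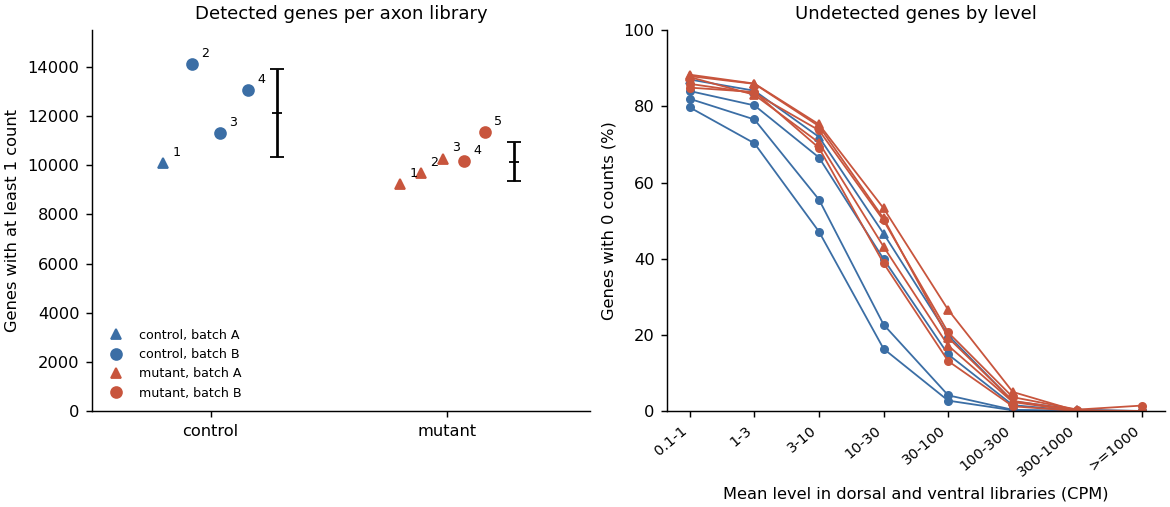
Left, genes with at least 1 read (y axis) in each of the 9 axon libraries by genotype, numbered by embryo, with triangles for batch A, circles for batch B, and the mean and SD beside each group; right, the share of genes with no read in each axon library, in percent, by the gene's mean CPM over the dorsal and ventral libraries. Mutants 1 to 5 sit between 9225 and 11358 genes, with control 1 (10076) among them, and the lines of controls 2 and 4 run lowest between 3 and 100 CPM.

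The genes without reads were mainly those of middle and low abundance. To see this without using the axon values themselves, genes were grouped by their mean CPM over the 18 dorsal and ventral libraries. Among genes of 3 to 10 CPM, 60.3% ± 11.1 had no read in a control axon library and 72.7% ± 2.74 in a mutant one. Among genes of 10 to 30 CPM the shares were 31.4% ± 14.2 and 47.2% ± 5.98, and among those of 30 to 100 CPM they were 10.4% ± 8.33 and 19.3% ± 4.93. Above that level the gap all but closed, with 1.14% and 2.97% at 100 to 300 CPM and 0.092% and 0.111% at 300 to 1000 CPM. Genes that the other regions expressed at 10 to 30 CPM were thus missing from about as many mutant axon libraries as they were detected in.

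Most genes seen in a single genotype were seen in a single library. Of the 21429 genes with any read in the axon libraries, 4328 were counted in all 9. Another 4422 were counted in controls alone, 3440 of them in 1 control only, and that control was control 2 for 1354 genes and control 1 for 445. In mutants alone there were 2769 genes, 2343 of them in 1 mutant only. Only 40 genes had reads in all 4 controls and in no mutant, and 1 gene had reads in all 5 mutants and in no control.

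Across all genes, no single gene passed the test for a genotype difference. With batch as a term, edgeR called 0 of 14977 genes (0%), where a call needed an adjusted p under 0.05 together with a log2 fold change beyond 0.58 in either direction, and the smallest adjusted p was 0.88. At an unadjusted p under 0.05 there were 531 genes (3.55%), 129 higher in mutants (0.861%) and 402 lower (2.68%). The count depended on the tool. DESeq2 called 1233 genes (8.23%), 212 higher (1.42%) and 1021 lower (6.82%), while limma voom called 49 (0.327%), 8 higher (0.0534%) and 41 lower (0.274%), and 33 genes were called by both.

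The genes that DESeq2 called were mainly those absent from many libraries. Of its 1233 calls, 587 had a whole genotype at 3 reads or fewer per library (47.6%, against 22.3% of all genes tested), the mutants for 394 genes and the controls for 193. Of the calls 36 were counted in all 9 libraries (2.92%, against 28.4% of all genes tested), and in 86 the genotypes did not overlap (6.97%, against 1.28%). The fitted changes were imprecise where reads were missing, so a count of 0 does not show that single genes were alike, and no DESeq2 call is used below as the basis of a statement.

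Fitted values below 0 outnumbered those above. Over all genes tested, 8637 had a fitted log2 fold change below 0 and 6340 above, with a median of -0.29. The 4255 tested genes counted in all 9 libraries had 2242 above (52.7%), 2013 below and a median of 0.04, a description only, because that condition by itself leaves out any gene without reads in a mutant. Among the other 10722 genes 6624 were below, with a median of -1.15 and a median SE of 3.37, against a median SE of 1.05 for genes counted in all 9. At an unadjusted p under 0.05 the well-detected genes divided evenly, with 40 higher and 40 lower. Complete separation of the genotypes was found in 36 genes higher in mutants (0.24%) and 156 lower (1.04%, or 1.28% in either direction) over all genes, and in 29 higher (0.682%) and 35 lower (0.823%) among those counted in all 9.

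**Figure D2:**
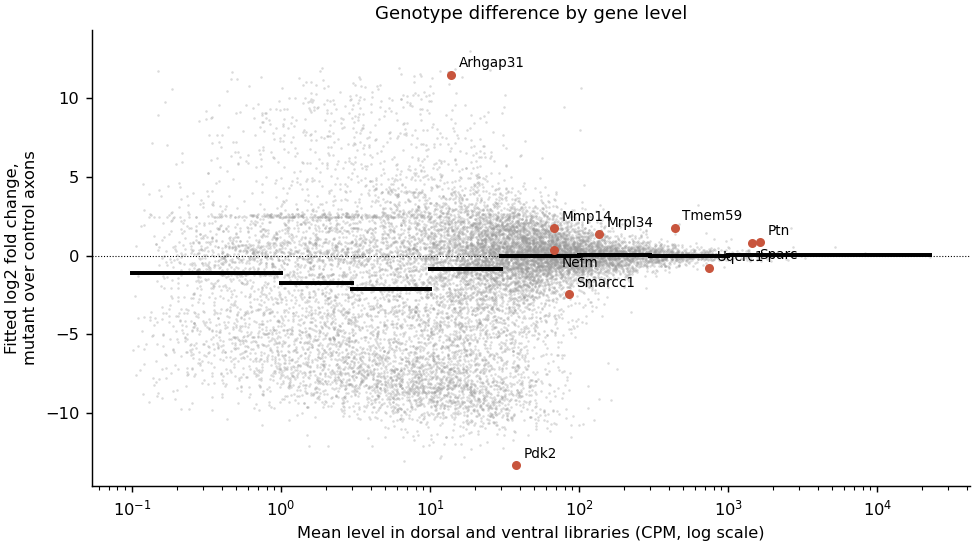
Fitted log2 fold change of mutant over control axons (y axis) for each gene tested, against its mean CPM over the dorsal and ventral libraries (x axis, log scale); black bars are the medians of the abundance classes and red points are genes named in the text. Of the 5781 genes at 3 to 30 CPM 3597 lie below 0, and the cloud narrows at 100 CPM and above, where 1119 of 2232 lie above 0.

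By abundance in the other regions, 3597 of 5781 genes of 3 to 30 CPM were lower in mutant axons, and 4493 of them had an absolute log2 fold change over 1. At 100 CPM or more, 1119 genes were higher and 1113 lower, and 302 exceeded that size. Of the 70 most abundant genes (1000 CPM or more) 2 did. Scaling to a common centre weighs abundant genes most, so the even balance there is partly set by it. Large fitted changes were commoner at 3 to 30 CPM than at 100 CPM or more but not restricted to scarce genes, since 800 of the 4255 genes counted in all 9 libraries (18.8%) also had an absolute log2 fold change over 1.

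Among the genes with the smallest p-values, those higher in mutants were mostly well measured. Ptn encodes pleiotrophin, a secreted heparin-binding growth factor that acts on neurites and glia (chromosome 6, minus strand, from 36714929 to 36810220). It was at 1159, 2159, 2310 and 2328 CPM in controls 1 to 4 and at 1408, 2530, 2495, 4177 and 4104 CPM in mutants 1 to 5. Within each batch every mutant exceeded every control, while mutant 1 of batch A lay below 3 controls of batch B. The log2 fold change with batch in the fit was 0.88 ± 0.18 (edgeR adjusted p = 0.88, limma voom adjusted p = 0.00171, DESeq2 adjusted p = 0.616).

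Sparc encodes a matrix-associated glycoprotein that binds collagen and modulates cell adhesion (chromosome 11, minus strand, from 55394500 to 55423183). Controls had 1451, 1207, 1055 and 1553 CPM, and mutants had 3128, 2824, 2560, 1332 and 2725 CPM. Mutant 4 lay among the controls and the other 4 mutants lay well above them. The log2 fold change was 0.79 ± 0.20 (edgeR adjusted p = 0.88).

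Mmp14, a membrane-anchored metalloproteinase that cleaves matrix proteins and activates other proteinases, is among the genes the study discusses (chromosome 14, plus strand, from 54431612 to 54445364). Controls 1 to 4 had 53.6, 95.8, 88.9 and 62.2 CPM. Mutants 1 to 5 had 96.4, 425, 297, 202 and 232 CPM. The groups did not overlap, although mutant 1 exceeded control 2 by less than 1 CPM. The means were 75.1 ± 20.4 and 250 ± 122 CPM, with a log2 fold change of 1.75 ± 0.56 (edgeR adjusted p = 0.88; two-sided exact permutation p = 0.0159, or 0.103 adjusted over the 13 genes the study discusses, and 0.025 within batches).

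Other abundant genes of this group were separated between the genotypes as well. Tmem59, a membrane protein of the secretory and lysosomal compartments, was at 52.9, 197, 146 and 172 CPM in controls and at 244, 277, 309, 393 and 514 CPM in mutants. Its log2 fold change was 1.77 ± 0.37 (edgeR adjusted p = 0.88, limma voom adjusted p = 0.144, DESeq2 adjusted p = 0.0431). Mrpl34, a protein of the large mitochondrial ribosomal subunit, was at 91.4, 136, 121 and 116 CPM in controls and at 294, 363, 302, 297 and 235 CPM in mutants (1.36 ± 0.38, edgeR adjusted p = 0.88). Magt1, a subunit of the complex that attaches sugars to new proteins, was at 328, 130, 272 and 187 CPM in controls and at 422, 464, 846, 516 and 532 CPM in mutants (1.17 ± 0.34, edgeR adjusted p = 0.88). All 3 genes had every mutant above every control, as for 0.24% of all genes tested. They were picked by p from these same values, which favours such separation.

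Fam213a, a peroxiredoxin-like protein, and Rgcc, a regulator of the cell cycle, had overlapping groups. Fam213a had 74.1 to 193 CPM in controls and 184 to 456 CPM in mutants (log2 fold change 1.55 ± 0.41), and Rgcc had means of 112 ± 45.0 and 273 ± 146 CPM (1.71 ± 0.45). Neither passed the adjusted threshold (edgeR adjusted p = 0.88 each).

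Another 3 genes of this group were close to absent in controls, and met the mean of 10 CPM that naming required through the mutants alone. Arhgap31, which turns off the small GTPases Cdc42 and Rac1, had 0.0556, 0, 0 and 0 CPM in controls and 66.6, 30.01, 58.1, 72.4 and 59.5 CPM in mutants, at least 354-fold higher with 3 reads per library as the floor (edgeR adjusted p = 0.88, limma voom adjusted p = 0.000261, DESeq2 adjusted p = 3.97e-12). Ifit2, an interferon-induced gene, had no read in any control or in mutant 2, and 32.2, 40.3, 114 and 31.1 CPM in mutants 1, 3, 4 and 5. Slc35e1, of the nucleotide sugar transporter family, had at most 0.733 CPM in controls and 149, 0.341, 7.82, 69.9 and 131 CPM in mutants. Arhgap31 was not restricted to mutants elsewhere in the stalk: the dorsal means were 36.6 CPM in controls and 8.21 in mutants.

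**Figure D3:**
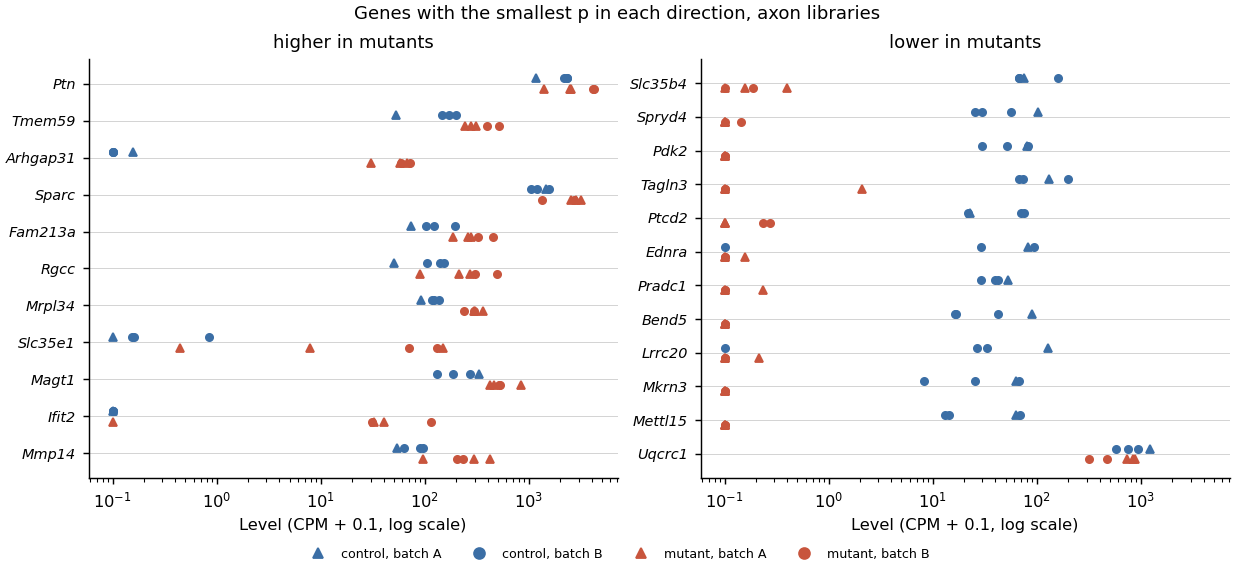
Level of the genes with the smallest p in each direction, 11 higher and 12 lower in mutants, in each of the 9 axon libraries, as CPM + 0.1 on a log axis so that libraries with no read sit at 0.1, with controls in blue, mutants in red, triangles for batch A and circles for batch B. Among the genes higher in mutants, 8 are above 50 CPM in all libraries, whereas for 11 of the 12 genes lower in mutants the mutant means lie under 1 CPM.

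The 12 genes lower in mutants with the smallest p-values had another shape, since 11 of them had a mutant mean under 1 CPM. These 11 met the mean of 10 CPM that naming required through the controls alone. They were picked by p from these same values, so their separation and fold bounds below are description and not independent support. Pdk2, a kinase that switches off pyruvate dehydrogenase, had 80.3, 29.5, 82.2 and 51.1 CPM in controls and no read in any mutant, at least 374-fold lower (edgeR adjusted p = 0.88, limma voom adjusted p = 8.85e-05). Slc35b4, a transporter of UDP-sugars into the Golgi, had 75.0, 67.7, 160.0 and 67.0 CPM in controls and at most 0.298 CPM in mutants (edgeR adjusted p = 0.88, limma voom adjusted p = 0.00064). Tagln3, a neuronal member of the transgelin family, had 131, 67.0, 197 and 74.0 CPM in controls and a signal in mutant 3 alone, at 1.97 CPM (edgeR adjusted p = 0.88, limma voom adjusted p = 0.000516). In these 3 genes every control lay far above every mutant, where 1.04% of all genes tested had every mutant below every control.

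Spryd4 was at least 329-fold lower, with 102, 29.3, 56.8 and 25.2 CPM in controls. Ptcd2, a mitochondrial RNA-binding protein, Pradc1, Bend5, Mkrn3, an imprinted ring finger gene, and Mettl15, which methylates mitochondrial ribosomal RNA, likewise had reads in all 4 controls and were between 243-fold and 293-fold lower as lower bounds. Ednra, the endothelin A receptor, and Lrrc20 each had 1 control without a read, control 4 and control 3. Exonic bases shared with neighbouring genes came to 10.5% in Pradc1, 10.01% in Slc35b4, 6.13% in Spryd4 and 11.3% in Tmem59, so part of their reads are uncertain.

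The exception was Uqcrc1, a core subunit of respiratory complex III, which was detected in all libraries. Controls had 1216, 759, 576 and 935 CPM and mutants had 878, 730, 837, 318 and 472 CPM. The groups overlapped, and the log2 fold change was -0.79 ± 0.22 (edgeR adjusted p = 0.88, limma voom adjusted p = 0.0171, DESeq2 adjusted p = 0.715).

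The genes near 0 in mutant axons were not silent in mutant embryos. In the dorsal and ventral mutant libraries the means of these 11 genes ran from 3.05 to 108 CPM, each was above 3 reads in at least 5 of the 10 libraries, and 3 were so in all 10. Pdk2, for one, had 36.8 ± 25.4 CPM in the dorsal and 39.6 ± 36.1 CPM in the ventral mutant libraries. Some of these genes were near 0 in control libraries too. Spryd4, Pradc1, Mkrn3 and Mettl15 were above 3 reads in 1 of 4 dorsal controls each, and Ptcd2 and Lrrc20 in 2 of 4. Slc35b4 and Bend5 were so in 3 of 4, and Pdk2, Tagln3 and Ednra in all 4. Among ventral controls Spryd4, Bend5, Mkrn3 and Mettl15 were so in 2 of 4, and Ednra and Lrrc20 in 3 of 4. Slc35b4, Pdk2, Tagln3, Ptcd2 and Pradc1 were so in all 4 ventral controls. None of the 11 passed the test of a difference in genotype effect between axons and dorsal OS in edgeR, while DESeq2 had an adjusted p under 0.05 for 10 of them. For Tagln3, whose adjusted p in that test was 0.615, the dorsal means were 96.3 ± 77.0 and 108 ± 74.5 CPM.

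Whether the axon region answered the loss of Smarcc1 differently from the dorsal OS was tested for every gene, with the embryo as a block. Of 16292 genes, 2 passed (0.0123%), Ptn and Sparc, and 510 had an unadjusted p under 0.05 (3.13%). The axon values of both are given above. In the dorsal region Ptn had 1791 ± 455 CPM in controls and 448 ± 303 in mutants, and Sparc had 1910 ± 230.0 and 970 ± 316 CPM, so mutants were lower there and higher in the axons. The difference of log2 fold changes, axons minus dorsal, was 2.73 ± 0.21 for Ptn (edgeR adjusted p = 0.00027) and 1.91 ± 0.24 for Sparc (edgeR adjusted p = 0.0253).

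The Ptn difference passed with each embryo left out in turn, at 2.63 to 2.89 (edgeR adjusted p from 5.39e-05 to 0.004). The Sparc difference stayed at 1.67 to 2.06 but no longer passed without mutant 1, 3 or 5 or without control 2, 3 or 4, with edgeR adjusted p between 0.0852 and 0.221.

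**Figure D4:**
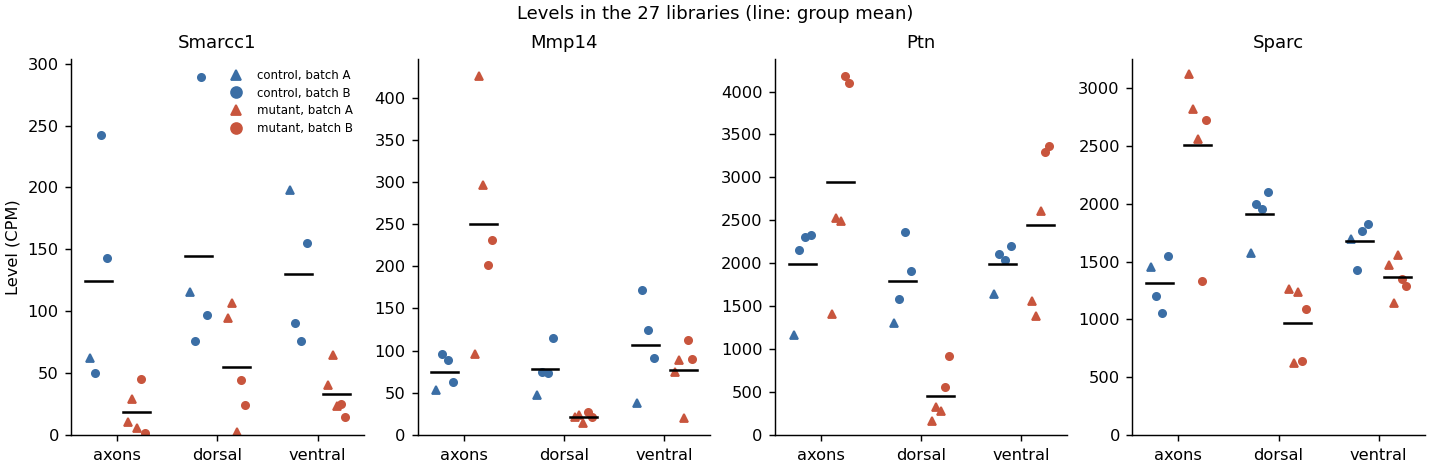
CPM (y axis, linear, starting at 0) of Smarcc1, Mmp14, Ptn and Sparc in each of the 27 libraries by region, with controls in blue, mutants in red, triangles for batch A, circles for batch B and a line at each group mean. For Sparc the mean was 1317 CPM in control and 2514 CPM in mutant axons, against 1910 and 970 CPM in the dorsal region.

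Against the ventral OS, 0 of 16277 genes passed in edgeR (0%), 374 had an unadjusted p under 0.05 (2.3%) and DESeq2 called 1118. Both comparisons of regions use the same axon libraries. Sparc had 1678 ± 175 CPM in ventral controls and 1363 ± 162 in ventral mutants, a difference of log2 fold changes of 1.17 ± 0.24 (edgeR adjusted p = 1.0). Ptn differed by 0.28 ± 0.21 there, with ventral means of 1996 CPM in controls and 2441 in mutants. Mmp14 had dorsal means of 77.8 ± 27.8 and 21.7 ± 4.63 CPM and ventral means of 106 and 77.1 CPM. Its differences were 3.40 ± 0.81 against dorsal (edgeR adjusted p = 1.0, DESeq2 adjusted p = 9e-06) and 2.03 ± 0.82 against ventral (edgeR adjusted p = 1.0).

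The other genes that the study discusses had overlapping genotypes in the axons. Smarca4 (BRG1), the ATPase of the complex, had 267 ± 19.6 CPM in controls and 225 ± 131 in mutants (exact permutation p = 0.563), and Smarcc2 (BAF170), the paralog of Smarcc1, had 31.0 ± 21.9 and 19.9 ± 17.0 CPM (exact permutation p = 0.619). Pax2, which marks the stalk and its astrocyte progenitors, had 15.3 ± 8.06 and 10.9 ± 7.03 CPM (exact permutation p = 0.421). Sox2 had 90.9 ± 74.2 and 97.3 ± 94.9 CPM, Sox9 180 ± 87.2 and 131 ± 128 CPM, and Hes1, a target of Notch, 206 ± 69.6 and 171 ± 50.2 CPM (exact permutation p = 0.913, 0.278 and 0.476).

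The retinal regulator Pax6 had 91.3, 56.1, 19.3 and 92.8 CPM in controls and 0, 0, 45.9, 11.5 and 80.5 CPM in mutants (exact permutation p = 0.143). In the dorsal region it stood at 61.5 ± 30.5 CPM in controls and 304 ± 71.9 in mutants, and the difference of effects was -5.85 ± 2.66 (edgeR adjusted p = 1.0). Mitf, the regulator of RPE identity, had 53.9 ± 23.7 and 61.2 ± 61.1 CPM in the axons (exact permutation p = 0.738). Otx2 and Adam15 stayed near the limit of detection, Otx2 with at most 0.327 CPM in controls and 4.69 in mutants and Adam15 with at most 1.13 and 5.50 CPM. The dorsal mutant mean of Otx2 was 216 ± 95.2 CPM, which the axon libraries did not share.

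With 0 of 14977 genes called by edgeR, the gene lists are described by their fitted values. Over all genes tested, 6340 were above 0 and 8637 below, with a median of -0.29. At an unadjusted p under 0.05, 0.861% of all genes were higher and 2.68% lower. The genotypes did not overlap in 0.24% (higher) and 1.04% (lower). Every list below is to be read beside these shares, and no list was tested against them. The sign of a fitted value, which takes account of batch, differed from that of the difference in mean CPM for 2473 genes, so both counts are given where they differ by more than 1 member. Of 24 tested genes of the axonal cytoskeleton, 6 had fitted values above 0 and 18 below, with a median log2 fold change of -0.54 against -0.29 over all genes, and 1 higher and 3 lower reached an unadjusted p under 0.05. The higher one was Map1b, a microtubule-associated protein of growing axons, with 1832, 1316, 2165 and 1778 CPM in controls and 2920, 2134, 3415, 1822 and 2883 CPM in mutants (0.50 ± 0.22, edgeR adjusted p = 0.88). The lower ones were Tubb3, Map2 and Dpysl2. Dpysl2 (CRMP2), a tubulin-binding protein of growth cones, had 263, 272, 578 and 378 CPM in controls and 73.9, 103, 204, 229 and 246 CPM in mutants, without overlap (-0.90 ± 0.41, edgeR adjusted p = 0.88). The summed level of the list overlapped, at 7082 to 8704 CPM in controls and 7237 to 10050 CPM in mutants.

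Of 17 tested genes of axonal transport, 10 were above 0 and 7 below, with a median of 0.24. Kif5b, a heavy chain of kinesin-1, had 340 ± 80.6 CPM in controls and 554 ± 174 in mutants (0.69 ± 0.30, edgeR adjusted p = 0.88), and Kif1a, a kinesin that carries synaptic vesicle precursors, had 1778 ± 847 and 1713 ± 397 CPM. Presynaptic genes had 6 of 17 above 0 and a median of -0.61, with 2 lower (Syt4 and Rab3a) at an unadjusted p under 0.05 and 1 higher. Rab3a had reads in control 1 alone, at 99.0 CPM. Adhesion molecules and guidance receptors had 9 of 20 above 0 and a median of -0.33. Cntn1, an axonal adhesion molecule, had 0.167, 12.3, 12.5 and 22.7 CPM in controls and a single mutant with a signal, mutant 4 at 0.0584 CPM (edgeR adjusted p = 0.88). Chl1 had reads in controls 2 and 3 alone. The 9 tested genes of RGC identity had 4 above 0 and a median of -0.15.

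**Figure D5:**
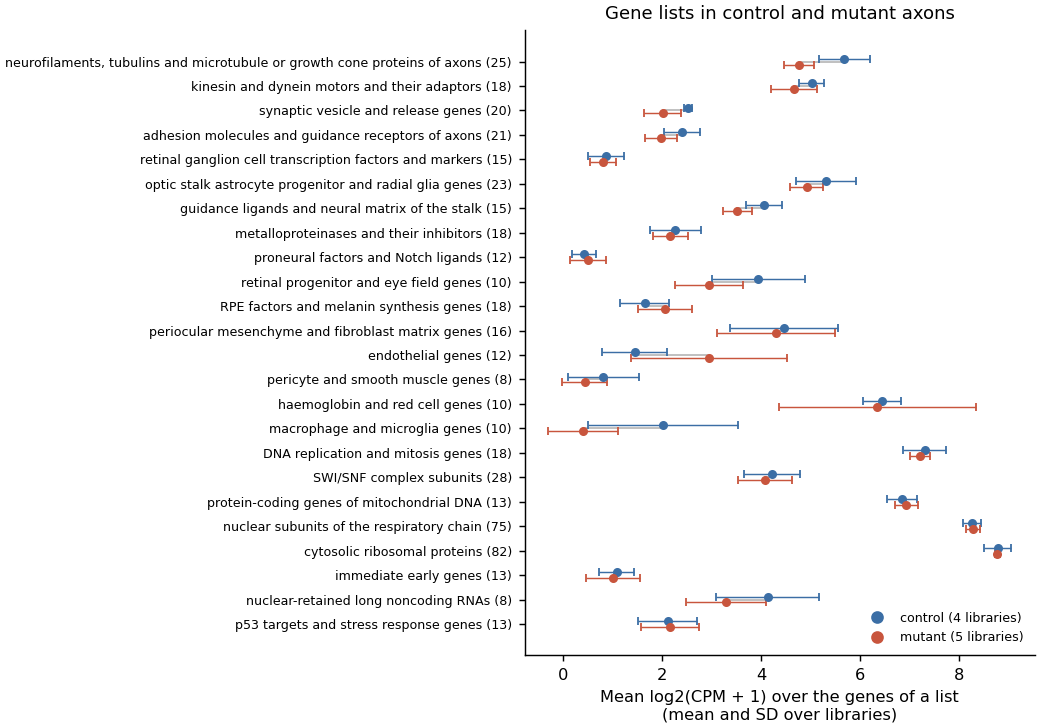
Mean log2(CPM + 1) over all genes of each list, with the number of genes listed in brackets, in control (blue, 4 libraries) and mutant (red, 5 libraries) axons; points are means and bars SDs over libraries. The bars overlap for most lists but not for the axonal cytoskeleton list (5.68 ± 0.505 in controls, 4.76 ± 0.300 in mutants) and the presynaptic list (2.52 ± 0.0806 and 2.01 ± 0.380). Members without reads lower such a mean, fewer genes were counted in mutants on average, and no such mean was computed over all genes. Whether these lists fell by more than other genes of the same abundance was not tested. Their summed levels overlapped between the genotypes.

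Of the cells around the axons, 20 of 23 listed genes of astrocyte progenitors were tested, 8 above 0 and 12 below (4 and 16 by mean CPM), with a median of -0.16 and none at an unadjusted p under 0.05. Vim had 2448 ± 1016 CPM in controls and 2053 ± 308 in mutants, Fabp7, the lipid-binding protein of radial glia, had 1490 ± 786 and 829 ± 239 CPM, and Id3 had 1051 ± 293 and 866 ± 203 CPM. Guidance ligands and neural matrix genes had 4 of 12 above 0, and 7 of 12 by mean CPM, with a median of -0.76, and Ptn was the only member at an unadjusted p under 0.05. Its paralog Mdk (midkine) had 885 ± 268 and 891 ± 180 CPM, and Ntn1 (netrin-1), which attracts RGC axons into the stalk, had 188 ± 120 and 200 ± 117 CPM. Of 15 tested genes of matrix remodelling, 8 were above 0, with a median of 0.34. Beside Mmp14, Reck, a membrane-anchored inhibitor of metalloproteinases, reached an unadjusted p under 0.05 (edgeR adjusted p = 0.88), with 36.9, 0, 0 and 0.0458 CPM in controls and no read in mutants. The summed level of the matrix remodelling list was 174 to 371 CPM in controls and 363 to 665 CPM in mutants. These sums include Mmp14, with 53.6 to 95.8 CPM in controls and 96.4 to 425 CPM in mutants, and sums without it were not computed.

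Genes of neurogenesis, retina and pigment cells were detected to different degrees. Of 12 proneural genes 8 had no read in any library, and the 4 tested had a median of 1.72, with Neurog2 at 51.1 CPM in mutant 4 and at most 0.0596 CPM elsewhere. Dll1 had reads in mutant 5 alone, at 0.0444 CPM. Of 10 genes of retinal progenitors 9 were tested, with 4 above 0, or 2 by mean CPM, and a median of -0.31 and summed levels of 263 to 823 CPM in controls and 263 to 397 CPM in mutants. Of 18 genes of the RPE and melanin synthesis 6 had no read, and of the 12 tested 9 were above 0, with a median of 1.45. Among those above 0, Tyrp1 (58.1 CPM) and Slc45a2 (19.1 CPM) had reads in mutant 5 alone. Pmel, which forms the fibrils of pigment granules, had 298, 19.9, 55.3 and 8.47 CPM in controls and 1079, 1236, 820, 0 and 180 CPM in mutants (1.72 ± 1.56, edgeR adjusted p = 0.911). Dct, which makes a melanin precursor, went the other way, with 260, 2.29, 43.7 and 5.27 CPM in controls and 8.13, 1.66, 19.9, 3.91 and 1.29 CPM in mutants (-3.60 ± 1.61, edgeR adjusted p = 0.88). Its control mean rested on control 1.

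Markers of other cells varied between embryos. Endothelial genes had 8 of 12 above 0, and 11 of 12 by mean CPM, with a median of 0.59 and summed levels of 21.3 to 220 CPM in controls and 37.7 to 576 in mutants. Esam, an endothelial adhesion molecule, had no read in controls and 140, 0.810, 47.5, 0 and 0.7099 CPM in mutants (edgeR adjusted p = 0.88). Mesenchymal genes had 6 of 16 above 0, and 8 of 16 by mean CPM, a median of -0.52 and overlapping sums of 463 to 2699 and 685 to 2768 CPM. Mural cell genes had 2 of 6 above 0, a median of -4.24 and sums of 0.111 to 51.7 and 0 to 44.8 CPM.

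Blood cells were also present. Erythroid genes had 8 of 10 above 0, a median of 1.09 and sums of 2650 to 9034 CPM in controls and 609 to 33120 CPM in mutants, the highest in mutant 3. All 9 tested myeloid genes were below 0, with a median of -9.0 and sums of 0 to 339 and 0 to 172 CPM. Tyrobp and Fcer1g, adaptor proteins of macrophages and microglia, had reads in controls 2 to 4 and in no other library (edgeR adjusted p = 0.88 for both), whereas the complement gene C1qb stood at 129 CPM in mutant 2. The part of these cells in the differences above was not tested.

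Lists of respiration, ribosome, mitochondrial DNA and proliferation genes had medians close to 0, though single members lay further off. Of 73 tested nuclear genes of oxidative phosphorylation, 39 were above 0 and 34 below (46 and 27 by mean CPM), with a median of 0.02, and 2 of them, Uqcrc1 and Ndufs4, were lower at an unadjusted p under 0.05. Ribosomal protein genes had 28 of 79 above 0, and 36 of 79 by mean CPM, with a median of -0.07. The 8 tested genes of mitochondrial DNA were all above 0 (6 of 8 by mean CPM), with a median of 0.18, and the other listed genes included 4 with no read in any library, mt-Co2, mt-Atp6, mt-Atp8 and mt-Nd4l. Genes of proliferation had 10 of 17 above 0, but 6 of 17 by mean CPM, and a median of 0.11, with Top2a at 611 ± 228 and 757 ± 190 CPM (0.55 ± 0.24, edgeR adjusted p = 0.88) and the replication factor Mcm3 at 322 ± 111 and 183 ± 93.4 CPM (-1.03 ± 0.47, edgeR adjusted p = 0.88).

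Among SWI/SNF subunits 14 of 26 tested genes were above 0, with a median of 0.07. Smarca2 (BRM), the alternative ATPase to Smarca4, had 37.0, 88.6, 144 and 57.6 CPM in controls and 93.1, 161, 125, 286 and 206 CPM in mutants (1.48 ± 0.58, edgeR adjusted p = 0.88), with groups that overlapped. Smarcc1 was the only subunit whose genotypes did not overlap.

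Genes that respond to stress or handling were measured as well. Immediate early genes had 4 of 9 above 0, and 6 of 9 by mean CPM, with a median of -2.68 and sums of 70.6 to 132 CPM in controls and 4.44 to 255 CPM in mutants. Targets of p53 and stress genes had 8 of 12 above 0 and a median of 0.77. Nuclear long noncoding RNAs, a rough measure of how much nuclear RNA a library holds, were divided 4 to 4, with 2 of 8 higher by mean CPM and a median of -0.20. Malat1 had 923 ± 295 CPM in controls and 1185 ± 622 in mutants (0.53 ± 0.37, edgeR adjusted p = 0.883).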

How the data were processed

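The deposited table holds unnormalized counts of reads for each gene. The authors ran Seq2Science on single-end reads of amplified RNA (laser-captured sections, Nextera XT libraries), aligned to mm10 with STAR and counted with HTSeq; the submitters' processing notes also name Salmon. Tool versions, the strand setting and the annotation release were not given in the sources used here. Gene names and coordinates were taken from GENCODE M21 for 55227 of 55487 listed IDs. Each library was 1 embryo, so replicates were separate animals. Samples of other stages in the study were not analysed here.

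A gene was tested if over 10 reads were counted in 3 or more of the 27 libraries and any in the axon libraries. Tests used edgeR 4.0.16 (quasi-likelihood, TMM, batch term, Benjamini-Hochberg adjustment, R 4.3.3). The SE of a fold change is its size over the root of the F statistic. Region differences were tested as interactions with the embryo as a block, taking libraries of the same genotype and number as 1 embryo. DESeq2 1.42.0 and limma 3.58.1 (voom) were alternatives, and 3097 adjusted p-values that DESeq2 gave as NA stayed NA. CPM were computed from the counts. Exact permutation tests enumerated all exchanges of the genotype labels, or the 40 that keep the batches. The procedures were tested on simulated counts of this design without a batch effect. In them, 200 genes drawn from those above a minimum mean CPM were changed. There edgeR called 10.5% of 4-fold and 49.5% of 16-fold changes, along with 10 and 21 unchanged genes. DESeq2 called 8.5% and 52.5%, along with 544 and 605 unchanged genes. For limma voom the shares were 6.5% and 15%, with 41 and 49 unchanged genes. Most 4-fold changes in these simulated counts thus went uncalled, and changes in scarcer genes were not simulated. The gene lists, the comparison and its rules were chosen with earlier results of these data known. The text names 13 genes that the study discusses, the 12 genes of smallest p in each direction with a regular symbol and a mean of at least 10 CPM, up to 3 members of each list by p and its most abundant members, and called region differences. A few results that this rule selects are not reported here. Exact p-values were adjusted over 8 library measures or 13 genes. Replicate numbers of controls and mutants belong to different embryos and do not pair them.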

Additional observations from a re-analysis of the deposited data

Results flagged for a closer look

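Groups of values were examined for single libraries that stood apart from the rest of their genotype. The cutoff used flags about 1 in 20 groups of normally distributed values. That rate does not apply to genes at or near 0 or to genes picked by p, which made up most of the groups. Libraries stood apart in 14 of 82 groups. In 8 of them the rest of the group was at or near 0 and reads in 1 library made the gap: Arhgap31 in control 1 (0.0556 CPM), and in mutants Spryd4 (mutant 5, 0.0444), Tagln3 (mutant 3, 1.97), Ednra (mutant 1, 0.0572), Pradc1 (mutant 3, 0.136), Lrrc20 (mutant 1, 0.115), Tubb3 (mutant 5, 0.133) and Cntn1 (mutant 4, 0.0584). Slc35e1 reached 0.733 CPM in control 4 against at most 0.0596 in the other controls. Among genes with clear expression, Ptn was lowest in control 1 (1159 CPM), which was also the only control of batch A. Sparc was lowest in mutant 4 (1332 CPM), Arhgap31 was lowest among mutants in mutant 2 (30.01 CPM), Slc35b4 was highest among controls in control 3 (160.0 CPM), and Ifit2 had no read in mutant 2 (0 CPM), unlike the other mutants.

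The genotype effect differed between the axons and the dorsal OS for Ptn (2.73 on the log2 scale) and Sparc (1.91), by the edgeR test of the difference itself.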

How the results depend on the processing

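The count of genes called in the axons was 0 in edgeR and also with each library left out in turn (0 to 0), but 1233 in DESeq2, 49 in limma voom and 52 with its quality weights, 10 without a filter on low counts and 5 with all 27 libraries in 1 fit. The median log2 fold change, -0.29, ran from -0.39 to -0.12 with 1 library left out, and it turned to 0.17 with the number of detected genes as a term and to 0.03 in a fit of genes counted in all 9 libraries, the latter chosen after seeing the data. The replicate number as a block left 0 calls, with 147 genes at an unadjusted p under 0.05 against 531, and turned Nefm to -0.28. Same-numbered controls and mutants did not deviate together (correlations -0.026 to 0.023). Without the batch term edgeR called 0 genes, with 2194 at an unadjusted p under 0.05. The difference in detected genes, -1997, was -1619 when at least 1 CPM was required (exact permutation p = 0.0476) and ran from -2686 to -1339 with 1 library left out. Smarcc1 ran from -3.53 to -2.53, and was -3.40 in batch B alone (exact permutation p = 0.1, the smallest possible). Against dorsal, DESeq2 called 1296 region differences, and leaving out 1 embryo gave 1 to 2 in edgeR. Against ventral, DESeq2 called 1118 and leaving out 1 embryo gave 0 to 0 in edgeR. Nefm alone changed direction in 841 values of 33 genes, namely those with the smallest p, some list members with low p, Smarcc1 and Nefm. Over all 104 genes selected for naming, 26 changed sign under some alternative, among them Smarcc2 (same sign in 17 of 26), Mitf (22), Smarca4 and Sox9 (23) and Sox2, Pax2, Hes1 and Malat1 (24). The spread between libraries of a genotype limited what could be detected for genes not counted in all 9 libraries, whose median SE was 3.37 on the log2 scale.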

Other observations

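Among genes counted in all 9 axon libraries with a mean of at least 100 CPM, 30 genes with regular symbols had no overlap between the genotypes, 17 higher and 13 lower in mutants. They were 1.65% of the 1816 genes at that level, against 1.28% of all genes tested, so the share is near that of all genes. Those outside the naming rule were picked after their values were seen, and none passed the adjusted threshold (edgeR adjusted p at least 0.88). Prdx4, a peroxiredoxin of the endoplasmic reticulum, had 396 ± 87.4 CPM in controls and 631 ± 94.8 in mutants. Cbx1, the heterochromatin protein HP1 beta, had 200.1 ± 52.0 and 337 ± 49.8 CPM, and Nucks1, a nuclear DNA-binding protein, had 231 ± 52.8 and 311 ± 19.9 CPM. On the lower side, Nmt2, which attaches myristate to proteins, had 249 ± 98.9 CPM in controls and 57.6 ± 38.4 in mutants. Metrn (meteorin), a secreted factor of glia and neurites, had 366, 187, 136 and 184 CPM in controls and 85.8, 88.8, 97.1, 132 and 57.1 CPM in mutants. Wnt7b, a secreted Wnt ligand, had 172, 163, 147 and 297 CPM in controls and 127, 131, 32.0, 57.8 and 42.4 CPM in mutants. Sat1, an enzyme of polyamine breakdown, had 303 ± 108 and 55.4 ± 36.1 CPM.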
